A study of Mus musculus with 2 samples.

Results

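The trypsinogens and pancreatic elastases are serine proteases that acinar cells, the enzyme-secreting cells of the exocrine pancreas, release as inactive precursors. Of 38924 genes quantified, 10 are described here. These members are 6 trypsinogen genes (Prss1, Prss2, Prss3, Try4, Try5 and Try10) and 4 elastase genes (Cela1, Cela2a, Cela3a and Cela3b). They were chosen by symbol with their measured strain ratios already known, so every ratio below is a description. The tissue was the pancreatic islet, which holds the hormone cells, taken from 2 inbred strains. C57BL/6J (B6) is the strain of the mouse reference genome, and CAST/EiJ (CAST) derives from wild mice of the subspecies castaneus. The mice of both strains were males of 10 weeks on standard chow, without further treatment. Their islets were freed with collagenase, partly purified on a Ficoll gradient and picked by hand in a buffer with 16.7 mM glucose, steps that enrich islets but can carry acinar cells along. Each library came from 250 islets pooled over 2 mice of 1 strain, so there was 1 library per strain, no spread between mice could be estimated and no strain difference was tested.

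Trypsinogens are activated in the gut lumen, where enteropeptidase cuts off a short activation peptide that ends in a run of aspartates and a lysine. Active trypsin then activates the proelastases, the chymotrypsinogens and the procarboxypeptidases by cutting at a basic residue, and cleaves food proteins after lysine and arginine. The elastases cleave after small or medium-sized neutral residues. Mouse trypsinogen genes lie in tandem within the T cell receptor beta locus, and tandem duplication left several of them close to identical. In the pancreas both families are textbook products of acinar cells, not of the hormone cells of the islet.

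The likeness between the genes bears on the values of all members but Cela1, which shares no window of 50 bases with another gene, because reads that match several genes were divided among them by RSEM, the quantification program the authors used. The activation site shows how close the trypsinogens are. The sequences are coding bases 10 to 99 of each transcript in GENCODE M21 (build GRCm38), 5′ to 3′, and capitals mark the codons of the aspartates and the lysine of the activation peptide. An intron lies within each genomic interval.
Prss1 (chr6:41458952-41461239, + strand, the same bases as Try4 and Try5): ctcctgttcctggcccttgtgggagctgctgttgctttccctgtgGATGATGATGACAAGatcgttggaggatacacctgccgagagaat
Prss2 (chr6:41521813-41522875, + strand): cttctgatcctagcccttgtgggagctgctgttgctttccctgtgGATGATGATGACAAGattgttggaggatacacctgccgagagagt
Prss3 (chr6:41376909-41377588, - strand): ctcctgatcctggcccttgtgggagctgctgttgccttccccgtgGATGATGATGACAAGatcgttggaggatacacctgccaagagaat
Try10 (chr6:41354201-41355510, + strand): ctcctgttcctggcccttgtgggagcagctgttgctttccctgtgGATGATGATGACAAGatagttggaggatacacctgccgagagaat
Over these 90 bases Try4 and Try5 differed from Prss1 at 0 positions, Try10 at 2, Prss3 at 4 and Prss2 at 5. The activation codons were the same in all 6 genes.

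Coding sequences of the 6 trypsinogens were 738 bases each and between 88.6% (Prss2 and Prss3) and 97.4% (Try4 and Try5) identical. Try4 and Try5 shared an unbroken stretch of 274 bases, and Prss1 and Prss3 one of 173. The reads that can tell such genes apart come from the remaining positions, shown for the stretch of 90 coding bases in which each pair differs at the most positions, with the differing bases in capitals.
Try4 (chr6:41304558-41305003, + strand): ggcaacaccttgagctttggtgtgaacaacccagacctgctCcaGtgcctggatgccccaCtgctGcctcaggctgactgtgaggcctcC
Try5 (chr6:41311762-41312208, - strand): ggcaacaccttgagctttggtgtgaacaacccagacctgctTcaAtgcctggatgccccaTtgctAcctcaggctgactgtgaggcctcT
Prss1 (chr6:41462587-41462676, + strand): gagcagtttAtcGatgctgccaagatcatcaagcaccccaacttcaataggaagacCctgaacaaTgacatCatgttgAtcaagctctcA
Prss3 (chr6:41374986-41375075, - strand): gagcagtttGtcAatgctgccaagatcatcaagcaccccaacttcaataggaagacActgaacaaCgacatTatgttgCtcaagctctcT
Try4 and Try5 differed at 5 of these 90 positions and Prss1 and Prss3 at 7. Near-identical copies, defined by 95% identity or more along no fewer than 200 bases that cover 50% or more of the shorter sequence, were found for 5 of the 6 trypsinogens. Besides other members these were 3 genes of the same cluster: Gm5771 (97.7% identical to Prss1), Gm10334 (98.8% to Prss3) and Gm5409 (97.7% to Try10), the last annotated as a pseudogene. Prss2 had no such copy.

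The elastases are far less alike. Coding sequences of Cela1, Cela2a and the Cela3 genes were 58.0% to 62.2% identical, and only Cela3a and Cela3b, neighbours on chromosome 4, came close to each other, at 89.3%. Both coding sequences are the same over their first 145 bases and diverge most in the following stretch, again with differing bases in capitals.
Cela3a (chr4:137405634-137405843, - strand): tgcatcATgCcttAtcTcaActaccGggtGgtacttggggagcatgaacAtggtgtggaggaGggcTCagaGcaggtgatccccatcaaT
Cela3b (chr4:137424839-137425048, - strand): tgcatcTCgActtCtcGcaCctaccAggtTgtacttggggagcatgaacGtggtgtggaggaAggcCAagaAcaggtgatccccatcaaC
They differed at 14 of the 90 positions. The pair fell short of the definition of near-identical copies, with 94.1% identity over 919 bases when Cela3b was aligned to Cela3a.

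The libraries held 76600902 (B6) and 104324631 (CAST) expected counts. The tissue label was checked against 8 beta cell markers, among them both insulin genes, which made up 19.6% of counts in B6 and 24.7% in CAST, with none at 0. All 20 acinar marker genes other than the members were also detected in both libraries, at 0.589% of counts in B6 and 2.60% in CAST. Of these, 17 were 2-fold or more higher in CAST, and the 3 within 2-fold were the transcription factor genes of the list. The amylase gene Amy2b alone gave 368 of the marker counts in B6 and 703091 in CAST. Duct markers held a lower share of counts in CAST (0.0297% in B6, 0.0227% in CAST) although 3 of the 6 with 100 or more counts were 2-fold or more higher there, and stellate cell and fibroblast markers held 0.00887% and 0.0158%. In bulk RNA a larger number of acinar cells and more enzyme RNA per acinar cell cannot be told apart. Ratios are log2 of CAST over B6 of TMM-scaled counts with 0.5 added, and each 95% interval is an exact Clopper-Pearson interval for counting error alone, as PCR copies are not independent molecules. On this scale the median was 0.02 over the 14768 genes whose counts in both libraries added up to 100 or more. It was -0.14 with total-count scaling and -0.26 by TPM (the level per length, scaled to the same total in each library), so ratios are to be read against that shift.

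Both families were more abundant in the CAST library by nearly the same factor, 3.92-fold for trypsinogens and 3.87-fold for elastases. The 6 trypsinogens together held 89753 counts in B6 and 430152 in CAST, or 0.117% (0.116 to 0.118) and 0.412% (0.411 to 0.414) of all counts, a log2 ratio of 1.97 (1.96 to 1.98). The 4 elastases held 132316 and 625424 counts, or 0.173% (0.172 to 0.174) and 0.599% (0.598 to 0.601), a log2 ratio of 1.95 (1.94 to 1.96). The number of trypsinogen counts per elastase count was therefore 0.678 in B6 and 0.688 in CAST, and per length, in transcripts, 0.911 and 0.912. For these 6 and 4 genes the balance between the families was thus close in the 2 libraries, while the level of both differed.

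Set beside the other digestive enzyme genes, the shares of both families were also close in the 2 libraries. Of all counts of members, copies, other pancreatic proteases and other digestive enzymes, trypsinogens made up 9.45% in B6 and 9.46% in CAST, and elastases 13.9% and 13.7%. That closeness depends on 1 amylase gene, Amy2b, which alone held 368 of the 949647 counts in B6 and 703091 of the 4548887 in CAST. Relative to the sum of the 7 other pancreatic proteases alone, the log2 ratios fell to 0.20 for trypsinogens and 0.18 for elastases. That comparison was added after the values had been seen.

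Not all single genes shared this common factor: Cela1, Cela2a, Cela3b and Try5 lay between 3.61-fold and 4.11-fold, and the other 6 lay further from it. Of the 10 members 9 exceeded 2-fold toward CAST, as did 7.18% of the 14768 genes, and 0 exceeded it toward B6, as did 5.99% of genes. At least 4-fold higher were 5 members (3.43% of genes), and 3 members were at least 32-fold higher (1.63% of genes). All 10 had 100 or more counts over both libraries, and 8 had as many in each library. Since the members were picked with these ratios known, nothing is read from those shares.

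**Figure D1:**
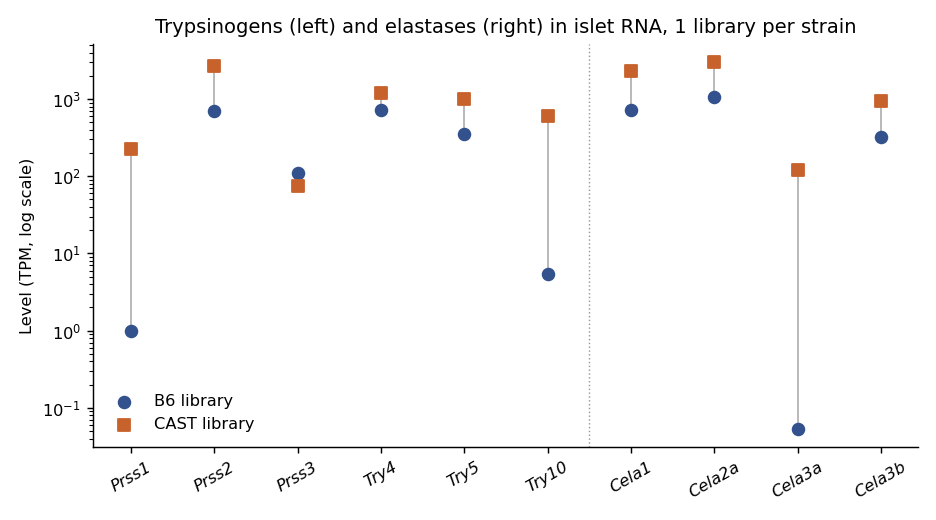
Level of each member in TPM on a log axis, with circles for the B6 and squares for the CAST library and a grey line joining the 2 values of a gene (1 library per strain, no error bars). The other 7 genes lie within 1 order of magnitude between the libraries, while Prss1 (1.00 and 223 TPM), Try10 (5.49 and 598) and Cela3a (0.0538 and 121) span more.

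Among the trypsinogens, Prss2, the major anionic form, was the most abundant in CAST and second in B6. Prss2 (ENSMUSG00000057163, chromosome 6, 41521787 to 41525079, 5 exons) was given 33316 counts in B6 and 198805 in CAST, 700.2 and 2685 TPM, a log2 ratio of 2.29 (2.27 to 2.30). It ranked 56th of all genes by TPM in B6 and 18th in CAST. Try4 (ENSMUSG00000054106, 41302269 to 41305532) led in B6, with 729 TPM in B6 and 1199.6 in CAST. Its 34026 and 87125 counts gave a log2 ratio of 1.07 (1.05 to 1.08), which passed 2-fold with TMM scaling and not with total-count scaling (0.91) or by TPM (0.72). Its neighbour and near-identical copy Try5 (ENSMUSG00000036938, 41311233 to 41316841) had 16644 and 73414 counts, 357 and 1011 TPM, with a log2 ratio of 1.85 (1.83 to 1.88). Added together, Try4 and Try5 were 2.59-fold higher in CAST (log2 1.37, 1.36 to 1.39), below the trypsinogen sum.

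Prss1 and Try10 stood far apart between the libraries. Prss1 (ENSMUSG00000062751, 41458932 to 41463786), which shares its symbol with the human gene of cationic trypsinogen, received 47 counts in B6 against 16269 in CAST, 1.00 and 223 TPM, a log2 ratio of 8.13 (7.73 to 8.59). It ranked 12811th of all genes by TPM in B6 and 226th in CAST. Try10 (ENSMUSG00000071521, 41354105 to 41357914) had 288 and 48758 counts, 5.49 and 598 TPM, a log2 ratio of 7.11 (6.95 to 7.29). Its near-identical copy, the pseudogene Gm5409 (41416912 to 41419589), followed the same direction with 4 and 5877 counts (log2 10.08, 8.87 to 12.11). Together they were 153-fold higher in CAST (log2 7.26, 7.09 to 7.43). Try4, 94.6% identical to Try10 and so just under the definition of a copy, held far more counts in B6 than either. The sum of Try4, Try5, Try10 and Gm5409, chosen after the values were seen, had 50962 and 215174 counts and a log2 ratio of 1.79 (1.77 to 1.80).

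Prss3 was the only member lower in CAST on this scale, and not by 2-fold. Prss3 (ENSMUSG00000071519, 41373814 to 41377678) was given 5432 counts in B6 and 5781 in CAST, 110 and 75.4 TPM, a log2 ratio of -0.20 (-0.25 to -0.15). With Gm10334 added, the only copy found when Prss3 itself was aligned, the ratio changed sign to 0.34. Prss1 also met the definition of a copy of Prss3 when Prss1 was aligned (96.1% over 752 bases), and it is not in that sum. The copies Gm5771 and Gm10334 went in opposite directions. Gm5771 (41392356 to 41397230) had 2584 and 1013 counts and was 3.12-fold higher in B6 (log2 -1.64, -1.75 to -1.54), and Gm10334 (41442216 to 41446145) had 438 and 3285 counts and was 6.13-fold higher in CAST.

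In the sum of Prss1 and its copies, most B6 counts were assigned to Prss3 (5432) and Gm5771 (2584). The ratio of that sum is that of these genes together, and whether reads were divided correctly among them was not tested. Prss1, Prss3, Gm5771 and Gm10334 together came to 8501 counts in B6 and 26348 in CAST, a log2 ratio of 1.34 (1.31 to 1.38), against 8.13 for Prss1 alone. In B6 Prss1 held 47 of those 8501 counts, and in CAST 16269 of 26348. The 3 copies moved the trypsinogen sum little, from 1.97 to 1.96, because they held 3026 and 10175 counts. CAST reads carry strain variants against the B6-based reference, and how these move reads between Prss1 and its copies was not tested.

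**Figure D2:**
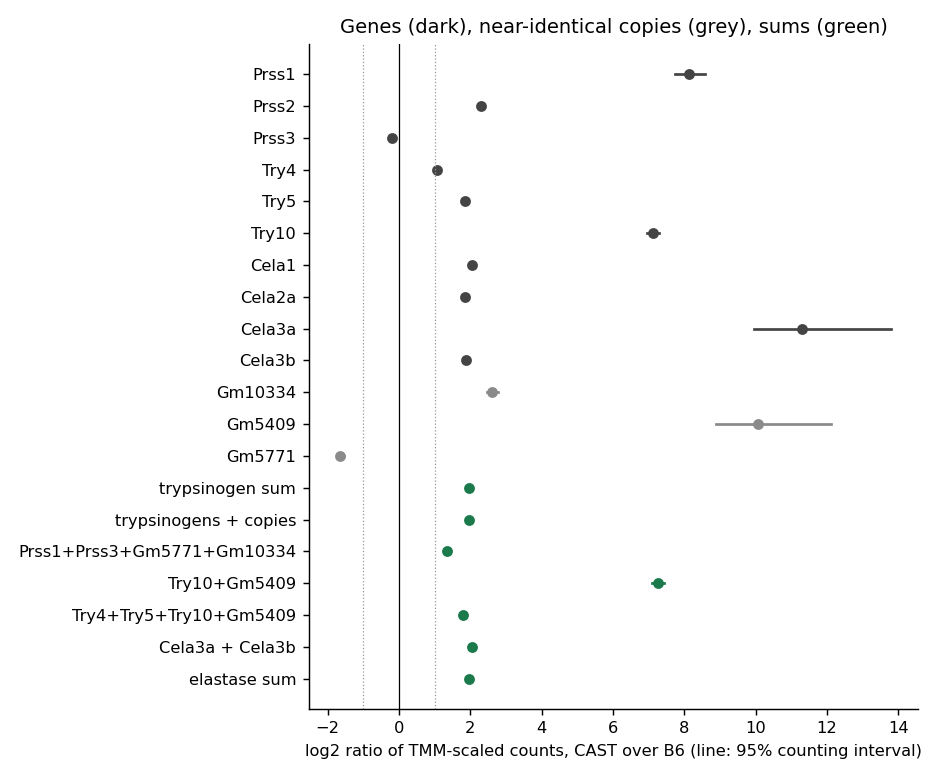
Log2 ratio of CAST over B6 (x axis, TMM-scaled counts) for each member (dark), each near-identical copy (grey) and sums of genes (green), with lines for 95% counting intervals and dotted lines at 2-fold. Single genes range from -1.64 (Gm5771) to 11.30 (Cela3a), the sum of Try10 and Gm5409 lies at 7.26, and the other 6 sums drawn lie between 1.34 and 2.05.

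**Figure D3:**
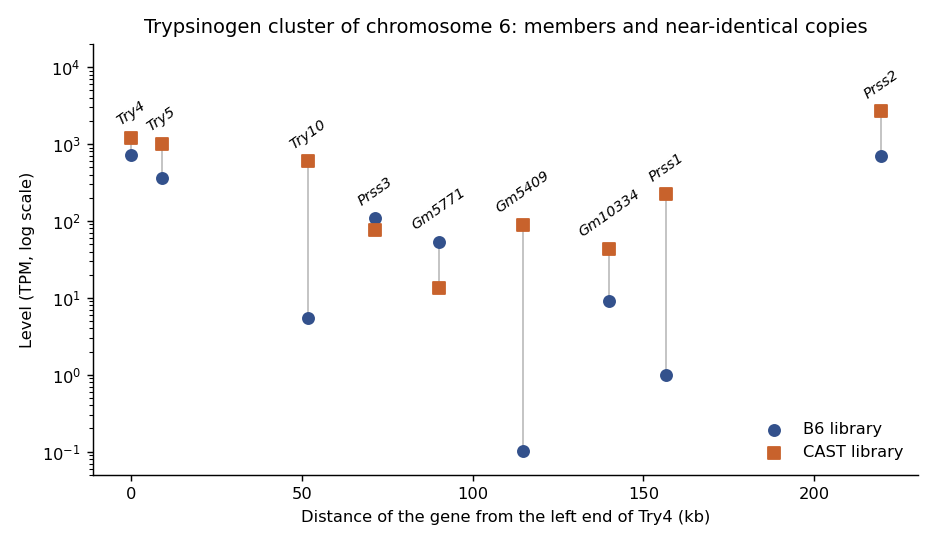
Level in TPM (log axis) of the members and near-identical copies against their distance in kb from the left end of Try4 on chromosome 6, with circles for B6 and squares for CAST. Prss3 and Gm5771, next to each other, are the genes with the B6 value above the CAST value, and the genes on both sides of them have it below.

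All elastases but 1 differed by nearly the same factor. Cela2a (ENSMUSG00000058579, chromosome 4, 141814962 to 141826160, 8 exons) was the most abundant member in both libraries, with 67381 counts in B6 and 298409 in CAST, 1053 and 2995 TPM, a log2 ratio of 1.86 (1.84 to 1.87). Cela1 (ENSMUSG00000023031, chromosome 15, 100674421 to 100687921) had 47149 and 236805 counts, 712 and 2299.8 TPM, and a log2 ratio of 2.04 (2.02 to 2.05). Cela3b (ENSMUSG00000023433, chromosome 4, 137420999 to 137430540) had 17783 and 79544 counts, 325 and 934 TPM, and a log2 ratio of 1.87 (1.85 to 1.89). These 3 genes lay between 3.62-fold and 4.11-fold.

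Cela3a was the exception and held the largest ratio of the members. Cela3a (ENSMUSG00000078520, 137401554 to 137409791) received 3 counts in B6 against 10666 in CAST, 0.0538 and 121 TPM, and a log2 ratio of 11.30 (9.96 to 13.78), whose width comes from the 3 counts. Cela3a and Cela3b together had 17786 and 90210 counts and a log2 ratio of 2.05 (2.03 to 2.08), and the elastase sum without Cela3a was 1.93. In CAST Cela3a reached 121 TPM beside 934 for Cela3b, so its counts changed the sum of the pair by little. It has no near-identical copy by the definition used here, and 87.9% of its 100-base windows and 65.8% of its 50-base windows occurred in no other gene.

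The order of the members by level per length differed between the libraries. In B6 it ran Cela2a, Try4, Cela1, Prss2, Try5, Cela3b, Prss3, Try10, Prss1 and Cela3a, from 1053 to 0.0538 TPM. In CAST it ran Cela2a, Prss2, Cela1, Try4, Try5, Cela3b, Try10, Prss1, Cela3a and Prss3, from 2995 to 75.4 TPM. Cela2a led both orders, Try5 and Cela3b followed each other in the middle of both, and Prss3 moved from the middle to the last place. With 1 library each, which neighbours in these orders differ beyond the spread between mice is unknown.

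As RSEM divided the reads, composition differed between the libraries in the trypsinogens and hardly in the elastases. Prss2 went from 37.1% of the trypsinogen total in B6 (interval 36.8 to 37.4) to 46.2% in CAST (46.1 to 46.4). Try4 went from 37.9% (37.6 to 38.2) to 20.3% (20.1 to 20.4), and Try10 from 0.321% (0.285 to 0.360) to 11.3% (11.2 to 11.4). Prss3 went from 6.05% to 1.34%, Prss1 from 0.0524% to 3.78%, and Try5 from 18.5% to 17.1%. Among the elastases Cela2a held 50.9% and 47.7%, Cela1 35.6% and 37.9%, Cela3b 13.4% and 12.7%, and Cela3a 0.00227% and 1.71%. The trypsinogen shares thus differed by up to 17.7 percentage points (Try4), and the elastase shares by up to 3.21 (Cela2a). Summed, Try4, Try5, Try10 and Gm5409 held 50962 of the 92779 counts of trypsinogens and copies in B6, and 215174 of 440327 in CAST. Of the trypsinogens only Prss2 has no near-identical copy. How far the division of reads between alike genes shaped these shares was not tested.

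**Figure D4:**
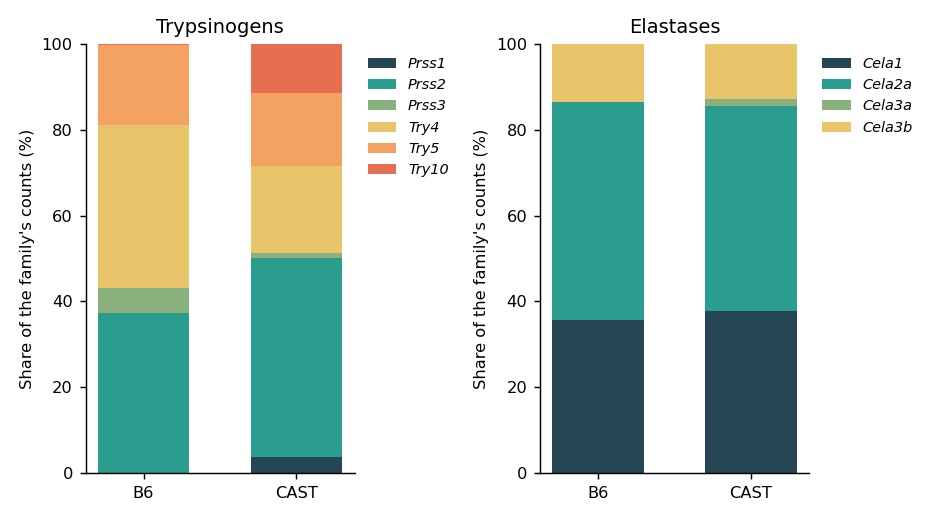
Share of each gene in the counts of its family (y axis, percent), with 1 stacked bar per library for trypsinogens (left) and elastases (right). In CAST the trypsinogen bar gains Try10 (11.3%) and Prss1 (3.78%) and the Try4 part falls to 20.3%, and no elastase share differs by more than 3.21 percentage points. All shares are drawn as RSEM divided the reads between alike genes.

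Each member was counted almost wholly on 1 transcript. Of the 10 genes 7 have a single transcript in the files, and the main transcripts of Cela2a, Cela3b and Try5 held 99.9% to 100% of their gene's counts in both libraries. Cela2a shares 50-base windows with Ctrc, the chymotrypsin C gene, and with Casp9, and 100-base windows with Ctrc alone.

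The share of sequence that is unique to a gene varied widely between members. Of all 100-base windows of its transcript, 100% occurred in no other annotated gene for Prss2 and Cela1. This share was 88.4% for Try10, 87.9% for Cela3a, 87.4% for Cela3b and 78.3% for Cela2a, and among the remaining trypsinogens 78.2% for Prss1, 74.4% for Try5, 69.8% for Try4 and 55.0% for Prss3. With windows of 50 bases, Cela1 alone stayed at 100%, and the share was 92.2% for Prss2, 74.4% for Cela2a, 66.8% for Cela3b and 65.8% for Cela3a. It was 59.2% for Try10, 46.1% for Try5, 45.1% for Prss1, 35.8% for Try4 and 33.9% for Prss3. The sources used here give no read length, so the share of reads that RSEM had to divide is unknown. The genes that were fully unique at 100 bases, Prss2 and Cela1, lay at log2 2.29 and 2.04, and Prss3, the least unique, had the lowest ratio. Prss1, Try10 and Cela3a, the 3 genes at least 32-fold apart, lay at 78.2% to 88.4% of 100-base windows and at 45.1% to 65.8% of 50-base windows.

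**Figure D5:**
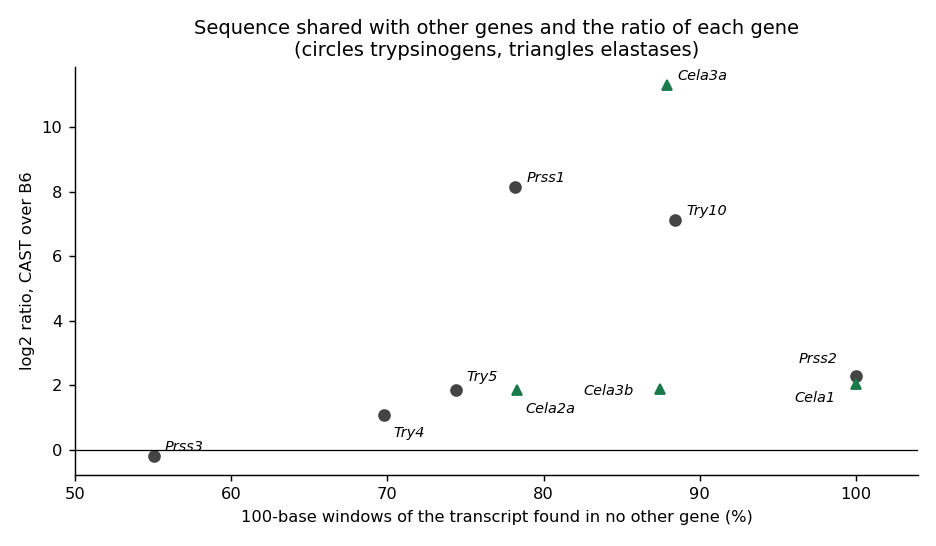
Log2 ratio of CAST over B6 of each member (y axis) against the percent of its 100-base windows found in no other gene (x axis), circles for trypsinogens and triangles for elastases. Prss2 and Cela1, at 100%, lie at 2.29 and 2.04, and the 3 highest ratios lie between 78.2% and 88.4%.

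Sequence upstream of the genes was examined because most members moved together while Cela3a was near 0 in B6 beside an abundant Cela3b. Windows of 250 bases before the RefSeq start (build GRCm38.p6) were matched for 8 of the 10 members, not for Try5 and Try10. The motif CACCTG, an E-box of the kind bound by basic helix-loop-helix factors such as the acinar factor PTF1A, was searched on both strands, and so was the TATA box TATAAA, and the 2 cannot overlap. CACCTG occurred in 8 of 8 member windows, and in 17.2% of 32851 windows of the same length over all genes. TATAAA occurred in 5 of 8, the 4 trypsinogens and Cela1, and in 12.4% of all windows. Because the members are related genes, the 8 windows are not independent cases, and no enrichment is read from these shares. The windows of Cela3a and Cela3b were 83.3% identical, with 4 copies of CACCTG or its complement in Cela3a and 2 in Cela3b. The bases from 250 to 21 before the start are shown in the direction of transcription, with CACCTG on either strand in capitals.
Cela3a (chr4:137409812-137410041, - strand): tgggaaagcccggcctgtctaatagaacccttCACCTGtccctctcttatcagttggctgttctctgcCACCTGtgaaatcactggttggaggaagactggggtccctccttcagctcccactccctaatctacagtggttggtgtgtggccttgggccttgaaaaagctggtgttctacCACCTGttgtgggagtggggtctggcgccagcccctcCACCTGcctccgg
Cela3b (chr4:137430541-137430770, - strand): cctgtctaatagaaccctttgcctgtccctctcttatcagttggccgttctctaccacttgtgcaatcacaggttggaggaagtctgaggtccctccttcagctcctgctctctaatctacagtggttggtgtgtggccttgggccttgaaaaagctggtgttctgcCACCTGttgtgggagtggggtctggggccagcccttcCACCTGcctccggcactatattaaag
A match describes these letters and shows no binding, and CAST sequence of these windows was not used here.

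The other pancreatic proteases differed in the same direction as the members. All 7 passed 2-fold toward CAST, and their median log2 value was 1.75. Ctrc, whose product degrades trypsin and trypsinogen and helps to activate proelastases, had 153 and 21065 counts (log2 6.81, 6.59 to 7.05). Of these, 88.1 and 20429 lay on Ctrc-204, a transcript annotated without a coding sequence. The lowest ratios in this list were those of Ctrl, a chymotrypsinogen-like gene (2.88-fold), and Cpb1, the procarboxypeptidase B gene (2.46-fold). Among the other digestive enzymes 13 of 14 with 100 or more counts passed 2-fold toward CAST (median 2.16). They ran from Amy2a5 (2.32-fold) to Amy1 (85.5-fold) and Amy2b (1561-fold), amylase genes that have close copies. Amy2a2 to Amy2a5 were each given 269475 counts in CAST, and each enters the 13 and the median as a separate gene. The remaining gene of the 14, Dnase1, was 2.07-fold higher in B6.

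Genes that control trypsin did not move as a group. Of 8 with 100 or more counts, 3 passed 2-fold toward CAST and 1 toward B6, and the median was 0.44. Spink1, the acinar trypsin inhibitor, had 715 and 3436 counts (log2 1.97, 1.86 to 2.09), the value of the trypsinogen sum, and Serpini2, a serpin of the pancreas, 390 and 2113 (2.15). The lysosomal proteases, of which cathepsin B can activate trypsinogen and cathepsin L degrades it, were within 2-fold: Ctsb at 0.33, Ctsl at 0.56 and Ctsd at -0.46. Serpina1d, an alpha-1-antitrypsin gene with close relatives, had 93 and 12 counts (log2 -3.19, -4.25 to -2.37). Tmprss15, which encodes enteropeptidase and is known from the duodenum, had 0 counts in B6, where 3 counts are the upper limit that this allows, and 4 in CAST.

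Of 7 zymogen granule genes 4 passed 2-fold toward CAST, and the median log2 value was 1.87. Gp2, the major granule membrane protein, was 5.80-fold higher in CAST, Cuzd1 4.99-fold, and Zg16 and Sycn 4.96-fold and 3.66-fold. Rab3d and Vamp8, which act in exocytosis of several cell types, were at log2 0.32 and 0.21. Of 6 acinar transcription factors 5 were within 2-fold (median 0.38), with Bhlha15 at 0.17, Xbp1 at 0.04 and Ptf1a at 0.43 (-0.06 to 0.95, 55 and 91 counts). Gata4 was highest at 1.61 (1.28 to 1.95, 96 and 359 counts). Xbp1 and Bhlha15 are also expressed in hormone cells, and which cells their counts came from was not tested.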

How the data were processed

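Each library was deposited as a table of transcripts with RSEM expected counts, per the submitters' processing notes on build GRCm38, and a fraction. The deposited fraction sums to 1 per library and was read as the share of transcript molecules (TPM when multiplied up). Aligner, versions, read length, kit, strand setting and annotation: not given in the sources used here. Unless strand was used, reads of overlapping genes cannot be told apart.

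Transcripts were summed per gene, rounded and scaled with TMM factors (edgeR 4.0.16, R 4.3.3; 1.055 for B6, 0.947 for CAST) over 18369 genes with at least 10 counts. GENCODE M21 gave names and positions for 37607 of 38924 genes and sequence for 96.5% of transcripts. Copies were found with minimap2 2.31, and coding sequences aligned with biopython 1.88. Intervals cover counting error only, with precision set by the counts printed. The ratio computation was tested on simulated data.

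Named genes were all members, copies with 100 or more counts, and the 2 highest and 2 lowest of each list of proteases, enzymes and regulators (cell type markers are given as sums), of which 1 gene is not reported here; Spink1, Ctsb, Ctsl, Tmprss15, Zg16, Sycn, Amy2a2, 2210010C04Rik and the Ctrc transcripts were also named after their values were seen. Members and lists were chosen with earlier results of these data known. Alternatives were DESeq2 1.42.0 size factors, total counts, TPM (pseudocounts 1 and 0.1), no filter, thinning, the main transcript only and added copies. Python 3.11.15, scipy 1.17.1 and matplotlib 3.10.9 were used.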

Additional observations from a re-analysis of the deposited data

How the results depend on the processing

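The log2 ratios of both family sums stayed above 1 under every scaling tried, and lay nearest to 0 when set against other acinar proteases. For trypsinogens (1.97 with TMM) they were 1.82 with total counts, 1.61 by TPM with either pseudocount and 1.96 with near-identical copies. They were 2.04 with copies and 2210010C04Rik, a more distant gene of the trypsinogen family, and 0.20 relative to the other pancreatic proteases. For elastases (1.95) they were 1.80 with total counts, 1.60 by TPM with either pseudocount, 1.93 without Cela3a and 0.18 relative to the other proteases. DESeq2 size factors, no filter, thinning and the main transcript kept both sums within their counting intervals. Setting the sums against the other proteases, leaving out Cela3a, adding 2210010C04Rik and adding Try4 and Try5 to Try10 were chosen after seeing the data. The number of members at least 2-fold higher in CAST was 8 with total counts and by TPM and 9 otherwise. For single members 39 of 71 alternative ratios lay within the counting interval, 31 outside it with the same sign, and 1 reversed. The reversed ratio was that of Prss3, at 0.34 with Gm10334 added and Prss1 left out. The sum of Prss1 and its copies lay at 1.34. Try10 lay at 7.26 with its copy Gm5409, and at 1.79 with Gm5409, Try4 and Try5. As RSEM divided the reads, the added genes held nearly all B6 counts of the sums at 1.34 and 1.79. In CAST, Prss1 held 16269 of the 26348 counts of its sum. Whether reads were divided correctly among these genes was not tested. Cela3a fell to 6.85 by TPM with a pseudocount of 1. No paired analysis was possible because each strain has 1 library. Depth limits Cela3a and Prss1 in B6, with 3 and 47 counts.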

Other observations

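Trypsin-like and elastase-like proteases that are not pancreatic zymogens were mostly within 2-fold between the libraries. Of 25 listed genes 12 had 100 or more counts over both libraries, of which 9 were higher in CAST. Past 2-fold were 2 toward CAST and 2 toward B6, and the median log2 value was 0.45. In CAST, Plat and Plau, the plasminogen activator genes, were higher by 3.48-fold and 2.16-fold. In B6, St14 and Tmprss2, which encode membrane-bound serine proteases of epithelia, were higher by 4.08-fold and 2.18-fold. Prss53, named here after its values were seen because it was the most abundant of the list, had 498 TPM in B6 and 442 in CAST (log2 0.17, 0.16 to 0.19). The listed serine protease genes of neutrophils and mast cells were at or near 0. Elane, Tpsab1, Tpsb2 and Mcpt4 had 0 counts in both libraries, and Prtn3 and Ctsg had 0 in B6 and 2 and 1 in CAST.

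A more distant gene of the trypsinogen family, 2210010C04Rik (chromosome 6, 41030268 to 41035509, 78.0% identical to Prss1 over 710 bases), is not among the 6 members. It had 29814 counts in B6 and 175443 in CAST, a log2 ratio of 2.27 (2.25 to 2.28), close to that of Prss2 (2.29). The sum of the 6 trypsinogens, its shares and its balance with the elastases leave this gene out. With this gene and the near-identical copies added, trypsinogens had 122593 counts in B6 and 615770 in CAST, beside 132316 and 625424 for elastases. The balance given above is therefore that of the members only. Among 12060 other named genes with 100 or more counts in each library, the 3 with the ratio nearest to the trypsinogen sum were Spink1 (1.97), Nrcam (1.97) and Gsdme (1.98), and those nearest to the elastase sum were Usp13 (1.95), Mpp6 (1.96) and Rnase1 (1.94). This likeness rests on 2 libraries, that is on 1 ratio per gene.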
